A study of Mus musculus with 24 samples.

Results

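The synaptic vesicle release machinery was represented by 35 genes, chosen by name from the 46983 genes of the count table. They encode the SNARE proteins, the calcium sensors, the synapsins, the vesicle membrane proteins, the Rab3 proteins, the active zone and priming proteins, the complexins and the proteins that take SNARE complexes apart. All 35 passed the filter on low counts, which kept 16209 genes. Dorsal and ventral hippocampus was punched out, and its bulk mRNA was sequenced, in 24 adult female mice of the strain labelled C57BL/6, with 6 mice in each of 4 groups. By the study's account the mice were of its first cohort, which had gone through behavioural tests as adults, a water maze included, and then an MRI scan. Both genotypes carried loxP-flanked Fkbp5 alleles. Fkbp5lox/lox mice had no Cre recombinase and kept FKBP51, a co-chaperone of the glucocorticoid receptor. In Fkbp5Nex mice, Cre driven from the Nex locus deleted Fkbp5 in glutamatergic neurons of the forebrain from embryonic life onwards, but not in the dentate gyrus or in other cell types, so the tissue still held cells with intact Fkbp5. Mice of each genotype were reared under control conditions or under early life stress (ELS), in which dams and pups received limited bedding and nesting material for several days after birth. The study asked how the deletion and ELS act together on the adult hippocampus, and the comparisons below ask this of the release machinery.

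Neurotransmitter is released when a vesicle docks at the active zone, is primed and fuses with the plasma membrane. Snap25 and Stx1a on the plasma membrane and Vamp1 or Vamp2 on the vesicle form the SNARE complex that drives fusion, synaptotagmins sense calcium, complexins clamp and assist the complex, and Nsf with its Snap cofactors recycles it. Many of these proteins come as paralogs that are used by different types of neuron, so a piece of tissue shows a blend of them.

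The libraries held from 18347283 to 26555623 counted reads per mouse, and the 35 genes took from 1.43% to 1.95% of them. Fkbp5, the deleted gene, had 1078 to 1602 counts in the 12 Fkbp5lox/lox mice and 169 to 582 in the 12 Fkbp5Nex mice, so every library matched its genotype label. Levels are given as CPM, the counts of a gene over the library total on a common scale, adjusted with edgeR's TMM method, and levels of different genes are compared only as CPM per kilobase of exon. Marker scores of brain regions and cell types were taken, each the mean z-score of the markers in a mouse. All 7 CA1, 9 CA2/CA3 and 10 dentate gyrus markers were detected in every mouse, as were the 10 thalamus markers, which are not hippocampal. 3 mice stood apart in these scores. Fkbp5Nex control mouse 12 had the highest astrocyte score (2.70) and microglia score (2.46), Fkbp5lox/lox control mouse 44 had the lowest CA2/CA3 score (-1.89), and Fkbp5lox/lox ELS mouse 8 had the highest dentate gyrus score (2.20) and the lowest CA1 score (-2.85). The main results were therefore also computed without these 3 mice, an alternative chosen after the data were seen.

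Exons of 13 of the 35 genes overlap a gene on the opposite strand, and whether the counting used strand is not given in the sources used here, so reads of such pairs cannot be told apart.

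Per kilobase, Snap25 was the highest of the 35 genes, at 406.7 ± 49.5 CPM per kb (SD, n = 24), and Syn3, the least abundant synapsin, was the lowest at 0.488 ± 0.103. The means lay 834-fold apart, and 451-fold apart when the longest transcript of each gene was used as its length, with Snap25 still first. Of the tested genes with a length, 20 members were in the top 10% by level and 28 were above the median. After Snap25 came the complexins Cplx2 (340.2 CPM per kb) and Cplx1 (303.6), the vesicle SNARE Vamp2 (240.1), the vesicle GTPase Rab3a (233.0) and the fast calcium sensor Syt1 (225.6). Of the 34 neighbouring pairs in this order, 33 overlapped between mice, and only the step from the calcium sensor Doc2a down to Syn3 did not. The order depends on the length used. By longest transcript, Vamp2, Syt1 and Nsf came at ranks 2, 3 and 4, Cplx2 at 5, Rab3a at 6 and Cplx1 at 7. The least abundant active zone and priming genes were Unc13b (3.06 CPM per kb) and Unc13c (1.63), which are paralogs of the priming factor Unc13a (24.5).

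**Figure D1:**
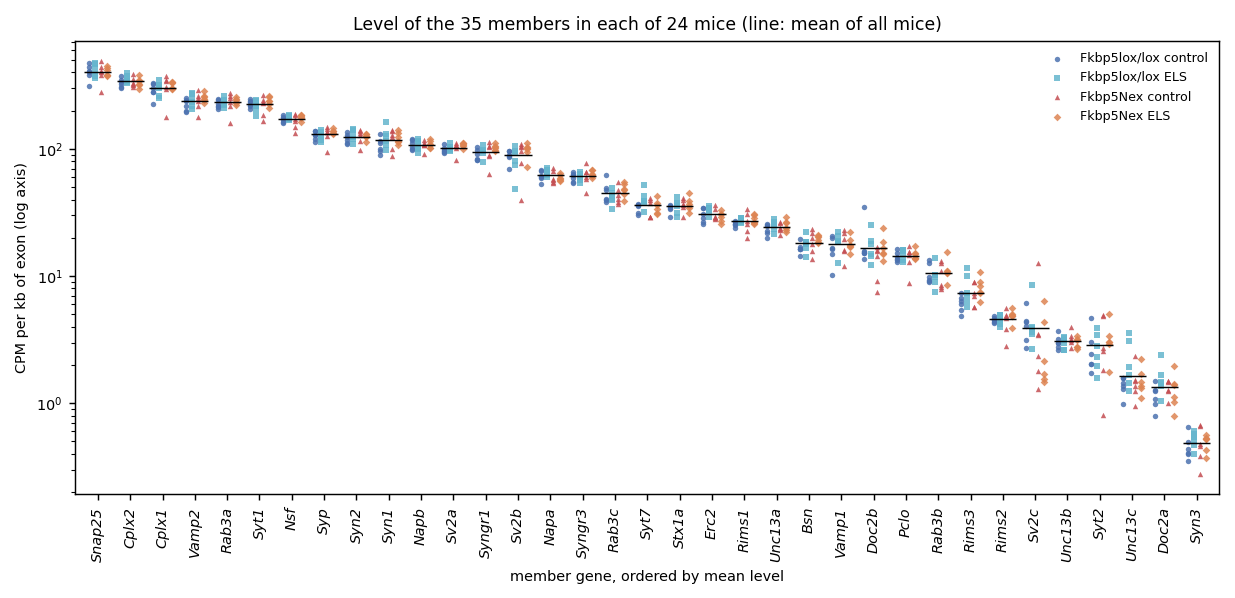
CPM per kb of exon (log axis) of the 35 genes, ordered by their mean, in each of the 24 mice, with a colour and a symbol for each of the 4 groups and a line at the mean. The levels run from Snap25 at 406.7 to Syn3 at 0.488, the groups lie within each other, and Sv2c and Syt2 are spread most widely between mice.

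The spread between mice of a group had a median SD of 0.196 on the log2 CPM scale over the 35 genes, beside 0.182 over all tested genes. Sv2c, a vesicle glycoprotein, was the most variable, with an SD of 0.80 and CPM values from 12.5 to 122.8. The calcium sensor Syt2 followed with an SD of 0.65 and values from 6.18 to 38.7 CPM, and Unc13c and Doc2b both had an SD of 0.43. The least variable were the vesicle glycoprotein Sv2a, with an SD of 0.10, and the disassembly ATPase Nsf and Cplx2, both at 0.11. Within the Sv2 family, the most and the least variable of the 35 genes were thus found together.

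Shares were taken within the members only, so paralogs outside them, such as Cplx3, were not counted in a family. On this basis, most paralog families were led by 1 gene. Syt1 made up 98.8% ± 0.459 of the Syt1 and Syt2 level per kb (SD, n = 24), Vamp2 93.1% ± 1.26 of the vesicle SNAREs, and Doc2b 92.1% ± 2.55 of the high-affinity calcium sensors of the Doc2 family. Unc13a held 83.8% ± 2.05 of the Unc13 level and Rab3a 80.7% ± 3.02 of the Rab3 level, where Rab3c followed with 15.7% and Rab3b with 3.63%. Rims1 held 69.3%, Rims3 18.9% and Rims2 11.8% of the Rims level, but by longest transcript Rims2 was above Rims3, which held 18.1%.

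Other families were shared. Cplx2 had 53.0% ± 4.22 and Cplx1 47.0% of the complexin level, and Cplx1 fell to a share of 33.6% in Fkbp5Nex control mouse 12, the lowest of the 24 mice. Syn2 and Syn1, which tether vesicles in the reserve pool, held 51.5% and 48.3%, and Syn3 held 0.204%. By longest transcript Syn2 held 65.5% and Syn1 34.1%, so their near-equal shares rest on the length used. Sv2a had 52.7% ± 3.85, Sv2b 45.1% ± 5.38 and Sv2c 2.17% ± 1.89 of the Sv2 level. By longest transcript Sv2b led, with 53.7% beside 44.4% for Sv2a. The share of Sv2b ranged from 29.7% to 50.3% and that of Sv2c from 0.602% to 9.39%. Of the Nsf cofactors among the members, Napb held 63.6% and Napa 36.4%. Of the synaptogyrins among the members, which are membrane proteins of the vesicle, Syngr1 held 60.7% and Syngr3 39.3%.

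**Figure D2:**
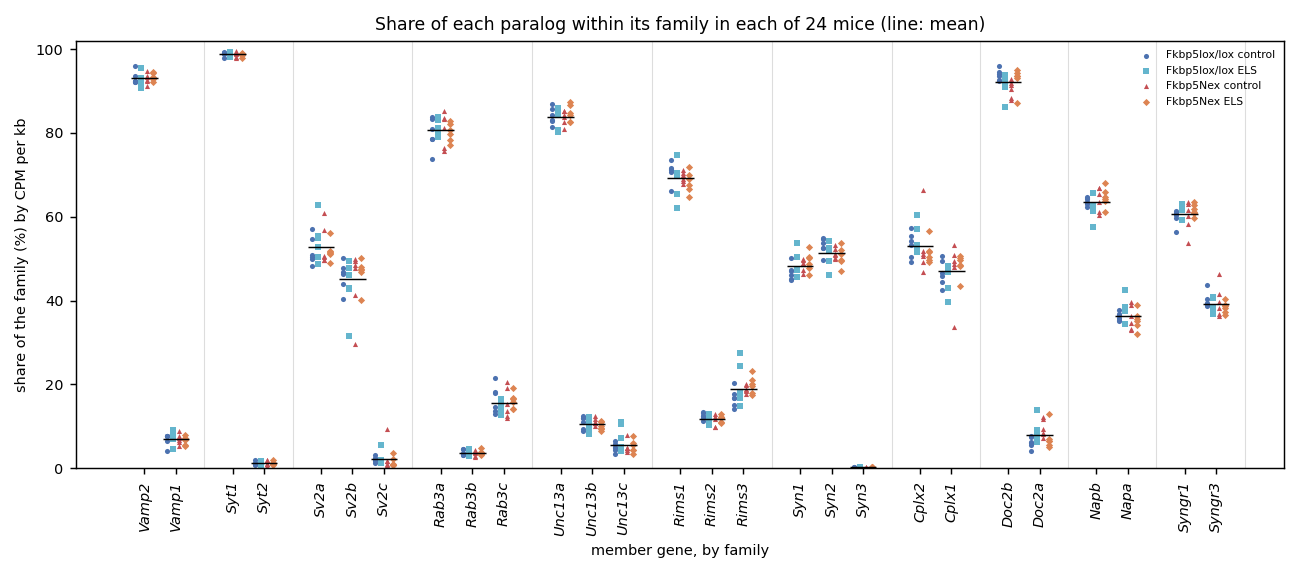
Share (%) of each paralog in the summed CPM per kb of union exon length of its family, counting members only. Each of the 24 mice is shown by group, with a line at the mean. Syt1, Vamp2 and Doc2b make up 98.8%, 93.1% and 92.1% of their families on average, whereas the Sv2, synapsin and complexin families are shared and the Sv2b share is low in single mice.

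ELS in Fkbp5lox/lox mice changed none of the 35 genes at a false discovery rate (FDR) of 0.02 in edgeR's quasi-likelihood test, and 0% of the 16209 tested genes. At an unadjusted p below 0.05 there were 6 members by edgeR and 5 by DESeq2, which is 17.1% of the members by edgeR beside 4.79% of all tested genes. All 6 had a positive log2 fold change in edgeR's fit. Plain levels did not all go the same way, as the mean of Unc13b was 69.0 CPM in controls and 68.2 CPM after ELS. The log2 fold change was positive for 29 of 35 members and 51.2% of tested genes, with medians of 0.07 and 0.0025. In this fit, with surrogate variables, all 9 active zone and priming genes had positive values. So did all 4 SNAREs, all 3 synapsins, both complexins and all 3 recycling genes, beside 5 of 6 vesicle membrane proteins, 2 of 5 calcium sensors and 1 of 3 Rab3 genes. The signs did not hold in every fit, and that of Unc13b reversed in 3 alternatives. In bulk tissue, fewer cells of a type and less RNA per cell cannot be told apart in such values.

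The member with the smallest p was Erc2, an active zone scaffold, with a lowest, median and highest level of 249.1, 290.3 and 336.0 CPM in Fkbp5lox/lox controls and of 282.8, 326.9 and 344.9 CPM after ELS. The groups overlapped, and edgeR gave a log2 fold change of 0.16 ± 0.05 (standard error) with an adjusted p of 0.962. Pclo, the giant scaffold piccolo, had 287.8, 311.5 and 370.1 CPM in controls and 292.2, 342.9 and 362.7 CPM after ELS, with a log2 fold change of 0.15 (standard error 0.05). The other 4 were Doc2a (0.47, standard error 0.21), Unc13b (0.14, 0.06), the plasma membrane SNARE Stx1a (0.13, 0.06) and Napa (0.08, 0.04). Doc2a is a gene of few reads, from 2.22 to 6.75 CPM over all mice.

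No member had group ranges that did not overlap, beside 0.0925% of tested genes, nor did any in the other pairwise comparisons (0.0679% for ELS in Fkbp5Nex mice, 0.160% and 0.173% for genotype in controls and after ELS). The 95% interval of the log2 fold change lay within 0.5 on either side of 0 for 32 of the 35 members, with a median half-width of 0.12. In this comparison the thalamus score differed too, with a mean of -0.67 ± 0.44 in Fkbp5lox/lox controls and 0.59 ± 1.13 after ELS (SD, n = 6 each). Its 10 markers summed to 61.2 to 116.1 CPM in controls and to 66.6 to 375.3 CPM after ELS, and none was at 0. The markers include Tcf7l2, Zic1 and Slc17a6, genes of a co-expression module that the study associated with ELS in these same libraries. The difference in the thalamus score is therefore not a separate observation. That score was also used as the covariate in place of the surrogate variables, after its group means were taken out. Such a covariate cannot remove the difference in score between the groups, so the fit does not adjust for it. In that fit 25 members had positive values, beside 50.1% of tested genes, and 4 had an unadjusted p below 0.05, beside 3.0%. Without the 3 mice that stood apart, 30 were positive, beside 49.8%, and 7 had an unadjusted p below 0.05, beside 8.1%. The single values were less steady. Without mouse 44 alone, Erc2 was at 0.05, Pclo at 0.04, Stx1a at 0.04 and Napa at 0.02, and without Fkbp5lox/lox ELS mouse 72 Doc2a was at 0.20. Unc13b fell as low as 0.0078 when 1 mouse was left out. Without surrogate variables Pclo was at 0.06 and Unc13b at -0.02.

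ELS in Fkbp5Nex mice changed none of the 35 genes at the FDR of 0.02 in edgeR's test, beside 0% of tested genes. By edgeR 1 member had an unadjusted p below 0.05, as did 1 by DESeq2, and this was 2.86% of members beside 2.59% of tested genes. It was Doc2b, a sensor linked to spontaneous and asynchronous release, with 33.0, 66.0 and 73.7 CPM in Fkbp5Nex controls and 57.5, 68.9 and 104.6 CPM after ELS. The ranges overlapped, and edgeR gave a log2 fold change of 0.26 ± 0.10 (standard error) with an adjusted p of 0.9996. Positive and negative values were balanced, at 17 and 18, and all but 1 of the 9 active zone and priming genes had negative values. Unc13b had the next smallest p, with a log2 fold change of -0.11 (standard error 0.06), which was -0.04 without Fkbp5lox/lox control mouse 74. Without that mouse Doc2b was at 0.17. Mouse 74 is in neither group compared here. The surrogate variables were estimated anew in each fit that left out a mouse, so a mouse outside a comparison could move its values.

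No member met the FDR of 0.02 between genotypes in control mice by edgeR, beside 0.0432% of tested genes. By unadjusted p, 5 members were below 0.05 by edgeR and 6 by DESeq2, or 14.3% of members by edgeR beside 8.53% of tested genes. Of the 5, Unc13b (0.18, standard error 0.06), Rims3 (0.24, 0.08), Pclo (0.10, 0.05) and the scaffold Bsn (0.21, 0.10) had positive values, that is, higher in Fkbp5Nex controls in the fit. The plain mean of Pclo was 315.1 CPM in Fkbp5Nex controls and 320.7 CPM in Fkbp5lox/lox controls. Without mouse 44, Unc13b was at 0.06, Pclo at 0.02 and Rims3 at 0.45, and without mouse 74 they were at 0.07, -0.01 and 0.41. Bsn was at 0.11 without Fkbp5lox/lox control mouse 28. With the 3 regional scores Rims3 was at -0.10 and Pclo at -0.12. In the main fit, though not in these alternatives, all 9 active zone and priming genes had positive values. All 3 Rab3 genes had negative ones in the main fit.

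The fifth was Doc2b, which had the smallest adjusted p of any member in any group comparison. It had 59.4, 67.1 and 152.0 CPM in Fkbp5lox/lox controls and 33.0, 66.0 and 73.7 CPM in Fkbp5Nex controls. The medians were close, and the groups differed at their ends, by mouse 44 with 152.0 CPM among the Fkbp5lox/lox controls, where the others had at most 68.6, and by mice 54 and 42 with 33.0 and 39.7 CPM among the Fkbp5Nex controls. In edgeR's fit its log2 fold change was -0.45 ± 0.09 (standard error), at an adjusted p of 0.0768. DESeq2 called it (adjusted p = 0.000642), and so did edgeR without Fkbp5lox/lox ELS mouse 68 (-0.56, adjusted p = 0.0048), a mouse outside this comparison. Over all alternatives its adjusted p ran from 0.000642 to 0.993. Without mouse 44 the value was -0.38 (adjusted p = 0.47), and without all 3 mice that stood apart -0.29 (adjusted p = 0.533). Doc2b (chr11:75768966-75796049 on the minus strand of GRCm38) is one of the genes with an overlapping gene on the opposite strand.

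The dentate gyrus score was lower in Fkbp5Nex mice, at -0.52 ± 1.09 in controls and -0.50 ± 0.64 after ELS, beside 0.45 ± 0.37 and 0.58 ± 0.98 in the Fkbp5lox/lox groups (SD, n = 6 each). The signs of the genotype values moved with the covariates. In controls, 27 of 35 members were positive, beside 49.4% of tested genes, but with the thalamus, dentate gyrus and CA2/CA3 scores in place of the surrogate variables 13 were, beside 49.9% in that fit, and 8 had an unadjusted p below 0.05, beside 14.3%.

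After ELS, no member met the FDR of 0.02 between genotypes by edgeR, beside 0.0123% of tested genes, and 4 members had an unadjusted p below 0.05 by edgeR and by DESeq2. These were 11.4% of members beside 6.10% of tested genes. Napa (-0.10, standard error 0.04), Snap25 (-0.10, 0.04) and Erc2 (-0.11, 0.05) had negative values and Rims3 (0.20, 0.08) a positive one in Fkbp5Nex against Fkbp5lox/lox ELS mice. Snap25 was at -0.0078 without Fkbp5Nex control mouse 12, a mouse outside this comparison. Erc2 was at -0.04 without Fkbp5lox/lox ELS mouse 72 and Rims3 at 0.05 without mouse 8. With the 3 regional scores as covariates Napa and Erc2 were at 0.0052 and 0.01. Snap25 had 2440, 2795 and 3211 CPM in Fkbp5lox/lox ELS mice and 2553, 2715 and 3041 CPM in Fkbp5Nex ELS mice, so the range of the second group lay inside that of the first. Positive values were found for 14 of 35 members, beside 48.9% of tested genes.

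Over both rearing conditions, 0 members met the FDR of 0.02 for genotype by edgeR, beside 0.0925% of tested genes, and 4 had an unadjusted p below 0.05, or 5 by DESeq2. The 4 were 11.4% of members beside 11% of tested genes (1790 of 16209), so the members were at the background rate. Rims3, a short Rims protein, had the smallest p, with 39.0, 49.6 and 59.2 CPM in Fkbp5lox/lox controls, 45.7, 57.5 and 92.5 CPM in Fkbp5lox/lox ELS mice, 45.7, 56.8 and 71.7 CPM in Fkbp5Nex controls and 50.2, 63.4 and 85.5 CPM in Fkbp5Nex ELS mice. By edgeR it differed by 0.22 ± 0.06 on the log2 scale (standard error, with an adjusted p of 0.139), and by -0.04 with the 3 regional scores as covariates. Doc2b had -0.24 (0.07, adjusted p = 0.152 from edgeR's test), Napa -0.07 (0.03) and Sv2c -0.32 (0.13). Sv2c was at 0.35 with the 3 regional scores and at -0.63 without the 3 mice that stood apart, and Napa was at 0.03 with those scores. Rims3 was at 0.14 without mouse 68. Positive values were found for 22 of 35 members, beside 49.0% of tested genes. Without Fkbp5lox/lox ELS mouse 68, Doc2b was called by edgeR, at -0.36 (adjusted p = 0.0145, the lowest over the alternatives, the highest being 0.822). ELS over both genotypes left 0 members past the FDR of 0.02 by edgeR, beside 0% of tested genes, and 0 with an unadjusted p below 0.05, or 1 by DESeq2, beside 3.32%. Positive values were found for 30 of 35 members there, beside 51.9% of tested genes, with a median of 0.04. The smallest p values were those of Napa (0.06, standard error 0.03) and Stx1a (0.08, 0.04). Without mouse 44 they were at 0.03 and 0.03, and with the 3 regional scores Napa was at -0.01. Napa had 200.4, 230.4 and 260.4 CPM in Fkbp5lox/lox controls, 228.2, 251.4 and 269.4 CPM in Fkbp5lox/lox ELS mice, 205.4, 218.6 and 266.9 CPM in Fkbp5Nex controls and 211.7, 222.5 and 246.6 CPM in Fkbp5Nex ELS mice.

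The interaction, taken as the ELS effect in Fkbp5lox/lox minus that in Fkbp5Nex mice, was past the FDR of 0.02 for 0 members by edgeR, beside 0% of tested genes, and 4 had an unadjusted p below 0.05 by edgeR and by DESeq2, beside 3.74% of tested genes. It was positive for 24 of 35 members, beside 50.1% of tested genes. Those 4 were Doc2b (-0.42, standard error 0.14), Unc13b (0.26, 0.09), Erc2 (0.21, 0.07) and Pclo (0.18, 0.07). The value of Doc2b was -0.25 without mouse 44 and -0.22 without Fkbp5lox/lox control mouse 74. Without mouse 74, Unc13b was at 0.11 and Erc2 at 0.07. Pclo fell as low as 0.0064 when 1 mouse was left out. Without surrogate variables Unc13b was at 0.10 and Pclo at -0.03. Without the 3 mice that stood apart, 0 members had an unadjusted p below 0.05. The 4 pairwise comparisons have groups in common, both control and ELS groups, so the signs above are not independent of each other.

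**Figure D3:**
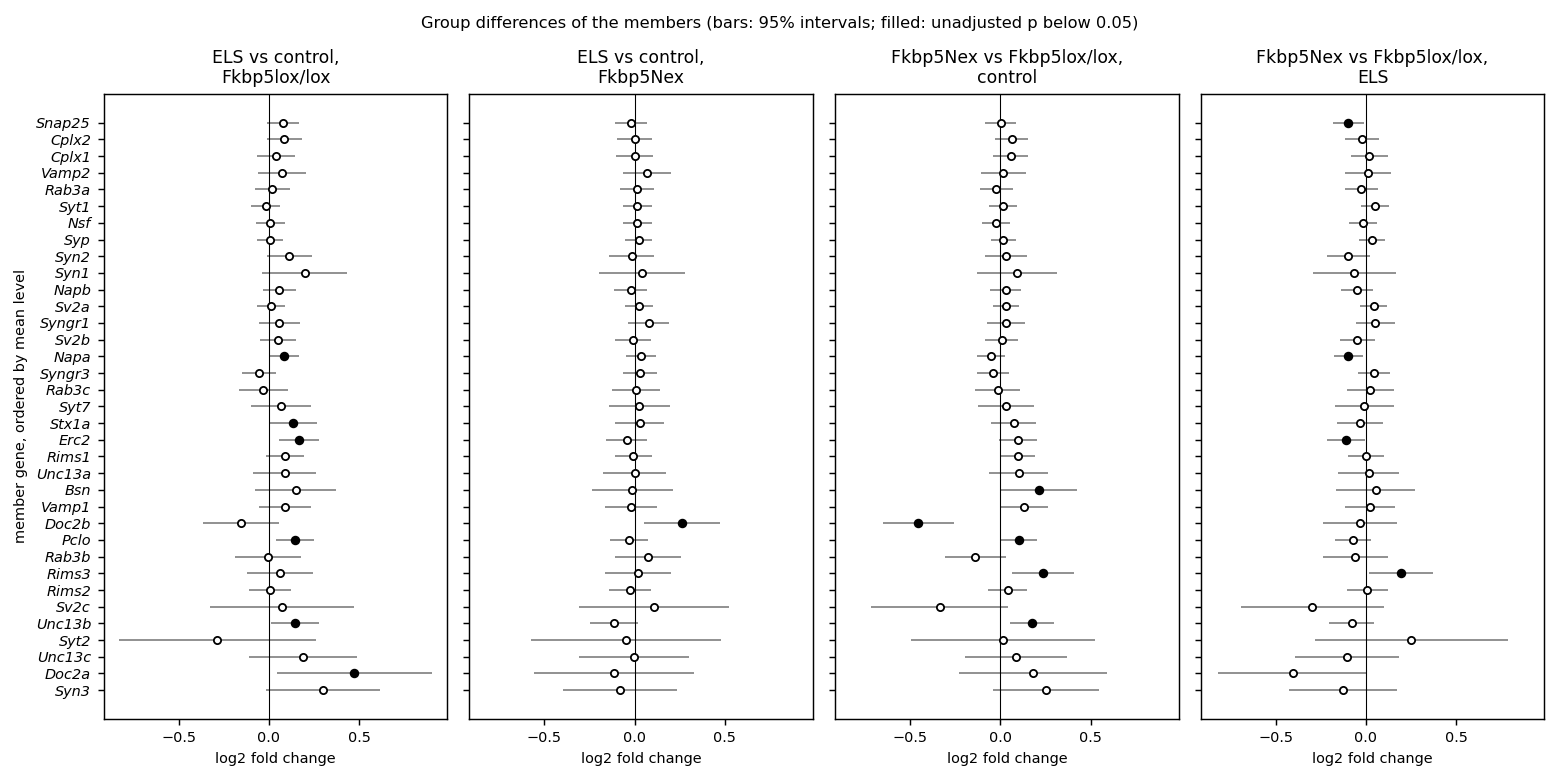
Log2 fold change (x axis) of the 35 genes, ordered by mean level, in the 4 pairwise comparisons, with bars for the 95% interval and filled points where the unadjusted p was below 0.05. None passed the FDR of 0.02, most intervals lie within 0.5 of 0, and Doc2b stands out at -0.45 between genotypes in controls.

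Of 48 further genes of release (more SNAREs, synaptotagmins, transporters that fill vesicles and priming factors), all 48 were tested and 0 met the FDR of 0.02 in any of the 7 comparisons by edgeR, with 0 to 7 at an unadjusted p below 0.05. The 7 were found for genotype over both rearing conditions, where 11% of all tested genes were below 0.05. The smallest adjusted p was that of Synpr, the vesicle protein synaptoporin, for genotype over both rearing conditions (-0.17, standard error 0.04, adjusted p = 0.103 from edgeR's test). Of 28 genes of synaptic vesicle endocytosis, all 28 were tested and 0 met the FDR of 0.02, with 0 to 4 at an unadjusted p below 0.05. The 4 were found for ELS in Fkbp5lox/lox mice, beside 4.79% of tested genes. There the smallest p for ELS in Fkbp5lox/lox mice was that of Amph, amphiphysin, a partner of dynamin (0.12, standard error 0.04).

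Beyond the groups, many of the 35 genes varied with marker scores of brain regions and cell types. What part the makeup of the punches has in this was not tested. Each gene was fitted on 1 score at a time beside the 4 group means, so that a slope is the log2 change in level per SD of the score between mice of the same group. On the CA2/CA3 score, 17 of 35 members (48.6%) had a slope past the FDR of 0.02 by edgeR, beside 13.4% of tested genes. Of these, 15 rose with the score (7.26% of tested genes did) and 2 fell (6.12%). The score rests on 9 marker genes of which none is a member, and its markers summed to 231.7 to 515.7 CPM in the controls of both genotypes and to 323.2 to 463.5 CPM after ELS.

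The promoters of 4 genes that moved with this score are shown, the 3 rising and the 1 falling member with the smallest p among those with a single RefSeq start close to the annotated one. Each run lies before the first annotated start and is written 5′ to 3′ on the strand of the gene, with matches to the GC box (GGGCGG or its complement CCGCCC) in capitals.
Cplx1: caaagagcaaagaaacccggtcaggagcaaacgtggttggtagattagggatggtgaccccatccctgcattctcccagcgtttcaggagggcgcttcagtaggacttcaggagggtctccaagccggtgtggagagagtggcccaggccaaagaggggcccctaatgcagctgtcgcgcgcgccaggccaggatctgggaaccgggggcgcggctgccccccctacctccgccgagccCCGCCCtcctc
Vamp1: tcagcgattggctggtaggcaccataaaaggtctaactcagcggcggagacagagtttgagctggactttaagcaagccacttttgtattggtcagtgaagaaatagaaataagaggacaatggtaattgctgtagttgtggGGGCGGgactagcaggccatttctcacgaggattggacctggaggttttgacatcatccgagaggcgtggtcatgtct
Syngr1: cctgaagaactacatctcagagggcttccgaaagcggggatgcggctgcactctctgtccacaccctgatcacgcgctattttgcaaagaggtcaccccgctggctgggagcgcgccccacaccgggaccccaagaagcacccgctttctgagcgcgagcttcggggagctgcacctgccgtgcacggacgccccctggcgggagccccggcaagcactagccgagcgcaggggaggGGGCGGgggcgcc
Sv2c: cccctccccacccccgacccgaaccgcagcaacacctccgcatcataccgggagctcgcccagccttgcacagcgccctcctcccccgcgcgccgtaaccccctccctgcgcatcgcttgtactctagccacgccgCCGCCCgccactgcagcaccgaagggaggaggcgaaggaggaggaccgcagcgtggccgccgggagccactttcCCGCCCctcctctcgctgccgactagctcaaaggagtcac
These are chr5:108550028-108550277 on the minus strand for Cplx1, chr6:125215331-125215550 on the plus strand for Vamp1, chr15:80091084-80091333 on the plus strand for Syngr1 and chr13:96132578-96132827 on the minus strand for Sv2c (RefSeq, GRCm38.p6), all upstream of the first exon. Counted from the RefSeq start, the match began 11 bases upstream in Cplx1, 13 in Syngr1 and 108 in Vamp1, and Sv2c had matches at 114 and 40. In Vamp1 the RefSeq start lies downstream of the end of the printed run, which stops before the first annotated start. In the 250 bases before the start, 20 of the 27 members with a window (74.1%) held a GC box on either strand in any of their windows, as did 35.4% of 27025 RefSeq genes, noncoding ones included. Counted by window, it was in 61.8% of 34 member windows and 32.7% of 32851 in all. The NRF1 site was in 4 of 27 (Bsn, Nsf, Pclo and Syp) and in 4.23% of genes, TATAAA in 2 and in 14.3%, the CRE TGACGTCA in 1 (Syn1) and in 1.77%, and the RE1 core in 0 and in 0.0111%. The 3 rising genes and the 1 falling gene shown thus all held GC boxes. The rising members Sv2b, Syn1, Nsf and Napb had none in their windows, and Doc2b, the other falling member, had no window.

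Among the rising members, the most abundant was Snap25, with a slope of 0.17 log2 per SD (standard error 0.02, adjusted p = 1.62e-06 from edgeR's test). It had 1894 CPM in mouse 12 and 2139 in mouse 44, which had the lowest CA2/CA3 scores of their groups, and 3321 CPM in Fkbp5Nex control mouse 54, which had the highest score of all. Cplx1 had a slope of 0.20 (standard error 0.02, adjusted p = 3e-06), with 393.7, 491.2 and 827.3 CPM in the same 3 mice. Vamp1, the vesicle SNARE that prevails in brainstem and spinal cord, had a slope of 0.24 (0.03), and Sv2b had 0.26 (0.05). These were the steepest positive slopes past the threshold. The other 11 risers lay between 0.06 (Sv2a) and 0.14 (Syngr1) and held the vesicle proteins Syp, Syn1, Syn2, Syt1 and Rab3a, the SNARE Stx1a, the scaffold Rims1 and the recycling proteins Nsf and Napb.

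The 2 members that fell with the CA2/CA3 score were Doc2b and Sv2c. Doc2b had a slope of -0.34 (standard error 0.04, adjusted p = 1.07e-05 from edgeR's test), with 152.0 CPM in mouse 44 and 33.0 in mouse 54. Sv2c had a slope of -0.51 (0.14, adjusted p = 0.0116), with 122.8 CPM in mouse 12 and 17.5 in mouse 54. Paralogs thus moved in different directions in the Sv2 family, where Sv2b and Sv2a rose and Sv2c fell.

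Single mice carried much of this count. Without the 2 mice at the greatest distance from the median score, 5 members were called beside 1.79% of tested genes, and these were Snap25, Syt1, Cplx1 and Syngr1, which rose, and Doc2b, which fell. Without mouse 12 there were 8 (4.63% of tested genes), without mouse 54 there were 11 (10.6%), and without the 3 mice that stood apart there were 4 (1.06%), namely Snap25, Vamp1, Cplx1 and Doc2b. The slopes of the named members kept their sign in every one of these fits.

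**Figure D4:**
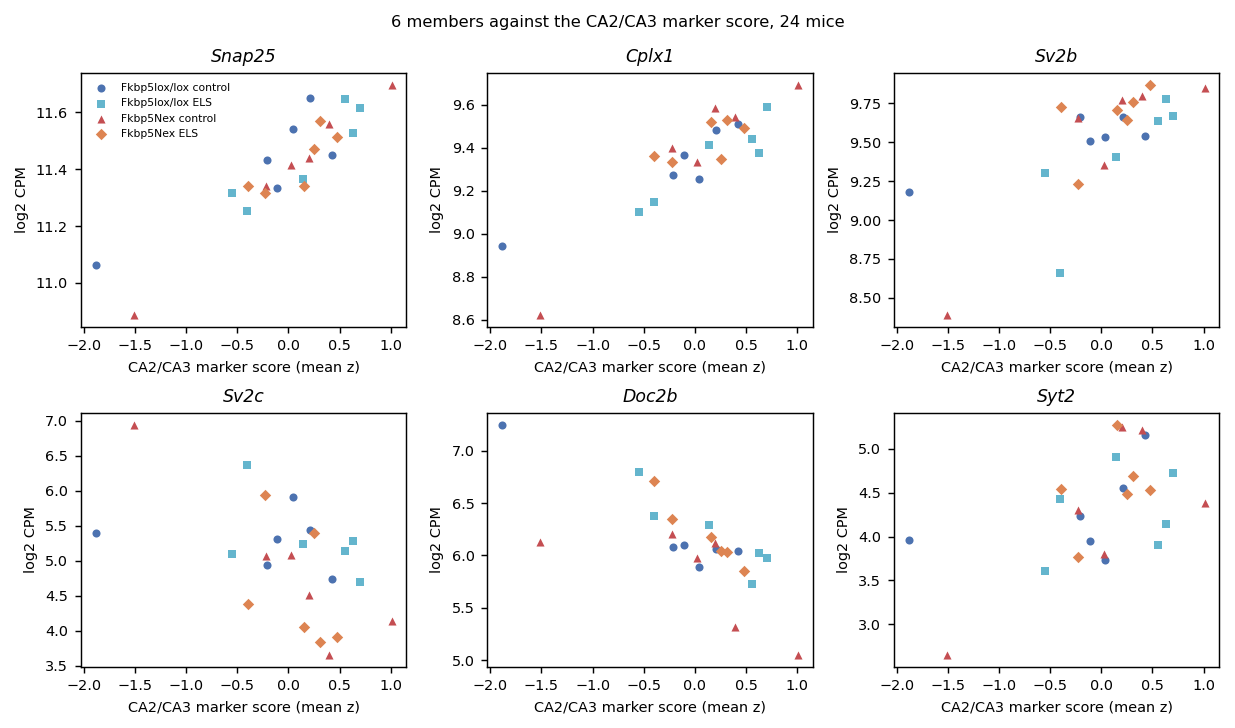
Log2 CPM of 6 genes (y axes) against the CA2/CA3 marker score (x axis, mean z-score of 9 markers) in the 24 mice, with a colour and symbol for each group. Snap25, Cplx1 and Sv2b rise with the score and Doc2b and Sv2c fall, the 2 mice with the lowest scores, 44 and 12, lie far from the rest, and the slope of Syt2 did not pass the threshold.

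On the dentate gyrus score, 9 members (25.7%) had slopes past the FDR of 0.02 by edgeR, beside 13.6% of tested genes, of which 6.98% rose and 6.61% fell. The 7 that fell were Sv2b (-0.32, standard error 0.03), Cplx1 (-0.16, 0.03), Syngr1 (-0.13, 0.03), Snap25 (-0.12, 0.03), Syt1 (-0.12, 0.03), Syn2 (-0.09, 0.02) and Sv2a (-0.07, 0.02). The 2 that rose were Sv2c (0.60, standard error 0.08) and Syt7 (0.11, 0.03), a slow calcium sensor of facilitation. Sv2c had its highest levels, 122.8, 82.3 and 61.3 CPM, in mice 12, 8 and 60, which had the highest dentate gyrus scores of their groups. The count was 2 without mouse 12 (Sv2b and Sv2c, beside 4.30% of tested genes), 14 without Fkbp5Nex control mouse 52 (17.6%) and 1 without the 3 mice that stood apart (Sv2b, beside 1.26%).

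The dentate gyrus and CA2/CA3 scores were themselves inversely related within groups (Pearson's r = -0.65, p = 0.00148, adjusted p = 0.0074, and Spearman's rho = -0.57, p = 0.00823, adjusted p = 0.0206, permutation tests within groups over 15 pairs of scores, n = 24), and r was -0.46 without the 2 mice at the greatest distance from the median. Of the members, 8 were called for both scores, which is 88.9% of those called for the dentate gyrus and 47.1% of those called for CA2/CA3, and all 8 had slopes of opposite sign. As the scores were related, the slopes on both were not separate observations. The same overlap over all tested genes is not given here, so this count has no background beside it.

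On the oligodendrocyte score, 6 members (17.1%) had slopes past the FDR of 0.02 by edgeR, 4 rising and 2 falling, beside 9.17% of tested genes, 5.21% rising and 3.97% falling. Syt2, the calcium sensor of fast synapses of interneurons and of the brainstem, rose by 0.48 log2 per SD (standard error 0.08), Vamp1 by 0.25 (0.03), Cplx1 by 0.18 (0.03) and Syngr1 by 0.13 (0.03), and Sv2c fell by 0.53 (0.14) and Doc2b by 0.26 (0.06). Syt2 had 15.5, 12.1 and 6.18 CPM in mice 44, 68 and 12, which had the lowest oligodendrocyte scores (-1.91, -1.77 and -1.73), and 37.2 CPM in Fkbp5Nex control mouse 42, where the score was highest at 1.64. The count was 10 without Fkbp5lox/lox control mouse 74 (beside 9.21% of tested genes). It was 5 without the 3 mice that stood apart (3.39%), and these were Syt2, Vamp1, Cplx1, Rims3 and Unc13c, so Sv2c, Doc2b and Syngr1 were no longer called. The oligodendrocyte score was related to the CA2/CA3 score (r = 0.78, p = 0.0001, adjusted p = 0.0015, rho = 0.68, p = 0.0011, adjusted p = 0.0131, r = 0.64 without the 2 mice at the greatest distance from the median, n = 24, permutation tests), so the slopes on both were not separate observations.

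The thalamus score had 2 members with slopes past the FDR of 0.02 by edgeR, beside 0.457% of tested genes (0.413% with a positive slope). Rims3 rose by 0.22 (standard error 0.03) and Unc13c, the priming factor known from cerebellar granule cells, by 0.30 (0.05). The thalamus score was highest in Fkbp5lox/lox ELS mice 8 and 78 and Fkbp5Nex ELS mouse 66 (2.01, 1.85 and 1.63). Rims3 had its 3 highest levels there, 79.6, 92.5 and 85.5 CPM. Unc13c had 31.2, 26.9 and 19.6 CPM in them, the first and second being its highest. Without mouse 8 Rims3 alone was called, beside 0.364% of tested genes, and without the 2 mice at the greatest distance from its median 0 members were. On the CA1 score 1 member was called, beside 0.555% of tested genes, which was Unc13c (-0.29, standard error 0.06), and it was lost without Fkbp5Nex control mouse 42 or Fkbp5lox/lox ELS mouse 68. Without mouse 12, as without the 3 mice that stood apart, the count was 2. On the GABA interneuron score 1 was called, beside 0.605%, which was Syt7 (-0.13, standard error 0.03), and without the 3 mice that stood apart 0 were. This count ranged from 0 to 3 when 1 mouse was left out, with 0 without any 1 of the mice 8, 12, 32, 34, 54, 60, 64 or 72.

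**Figure D5:**
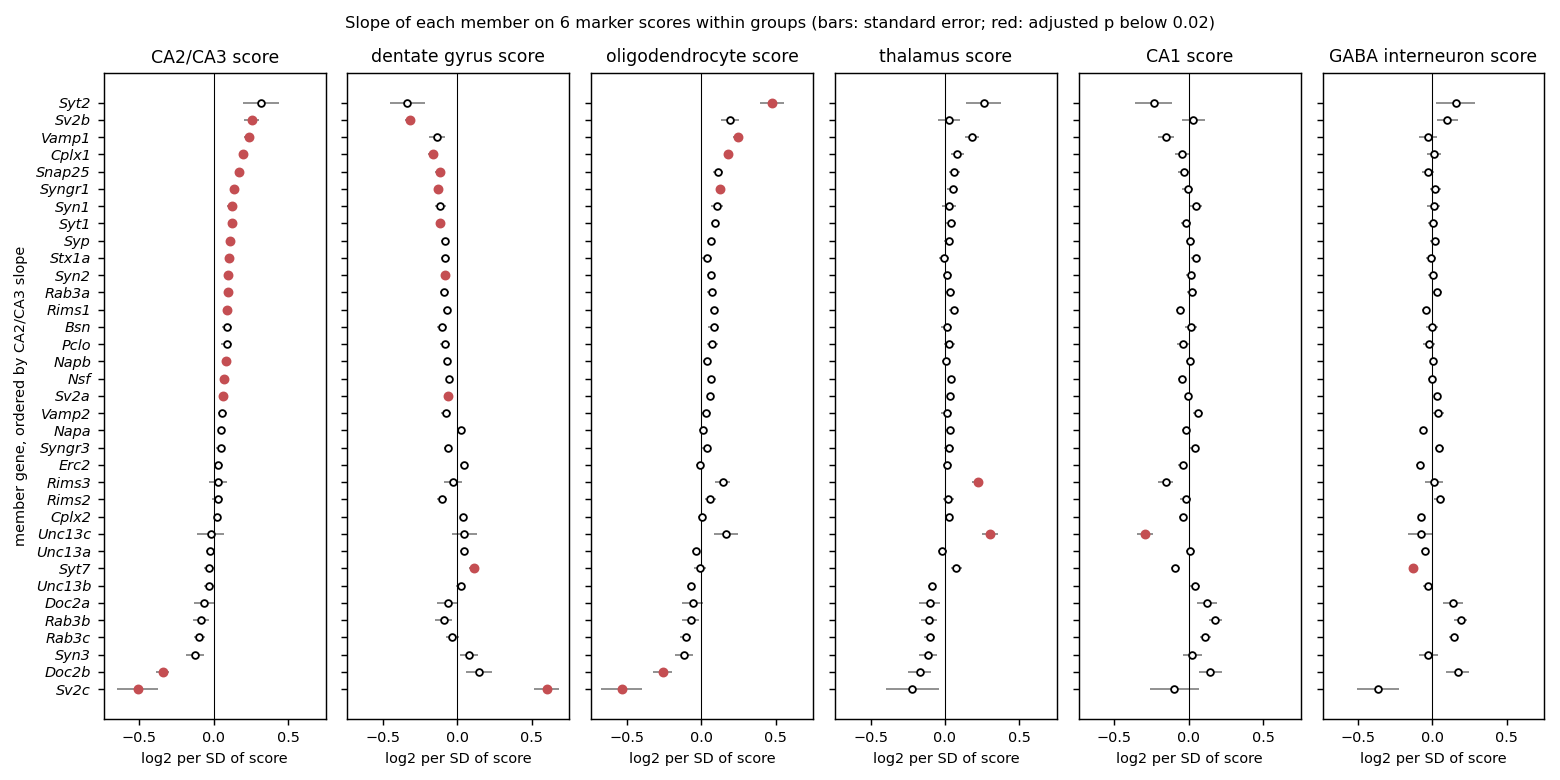
Slope (log2 per SD of the score, x axes) of the 35 genes, ordered by their CA2/CA3 slope, on 6 marker scores, with bars for the standard error and red points where the adjusted p was below 0.02. Slopes are called for 17 genes on the CA2/CA3 score and for 9 on the dentate gyrus score. The 8 genes called for both have slopes of opposite sign, whereas 2, 1 and 1 genes are called for the thalamus, CA1 and GABA interneuron scores.

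The lowest, median and highest levels of the called members in each group are given next. Sv2b, a glycoprotein of most glutamatergic vesicles, had 581.4, 743.1 and 812.1 CPM in Fkbp5lox/lox controls, 403.5, 736.4 and 877.0 CPM in Fkbp5lox/lox ELS mice, 335.2, 839.9 and 923.5 CPM in Fkbp5Nex controls and 600.9, 841.9 and 935.6 CPM in Fkbp5Nex ELS mice. Its lowest values were those of mice 12 and 8, which had the highest dentate gyrus scores. Sv2c had 26.5, 40.8 and 59.7 CPM in Fkbp5lox/lox controls, 25.7, 36.4 and 82.3 CPM in Fkbp5lox/lox ELS mice, 12.5, 28.0 and 122.8 CPM in Fkbp5Nex controls and 14.2, 18.6 and 61.3 CPM in Fkbp5Nex ELS mice, so its medians were lower in the Fkbp5Nex groups while its single highest value was also there. Cplx1 had 491.2, 639.0 and 728.1 CPM in Fkbp5lox/lox controls, 549.6, 672.2 and 769.0 CPM in Fkbp5lox/lox ELS mice, 393.7, 710.5 and 827.3 CPM in Fkbp5Nex controls and 645.7, 688.5 and 739.2 CPM in Fkbp5Nex ELS mice. Vamp1 had 103.7, 167.9 and 211.2 CPM in Fkbp5lox/lox controls, 129.1, 190.3 and 224.7 CPM in Fkbp5lox/lox ELS mice, 121.7, 182.1 and 233.2 CPM in Fkbp5Nex controls and 151.7, 176.3 and 226.5 CPM in Fkbp5Nex ELS mice. In each of these genes the 4 groups overlapped, and the widest range in CPM was that of the Fkbp5Nex controls.

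Among the vesicle proteins, Syt1 had 1705, 1894 and 2045 CPM in Fkbp5lox/lox controls, 1516, 1818 and 2009 CPM in Fkbp5lox/lox ELS mice, 1385, 1930 and 2222 CPM in Fkbp5Nex controls and 1760, 1986 and 2184 CPM in Fkbp5Nex ELS mice. Syp, synaptophysin, had 586.8, 676.9 and 720.8 CPM in Fkbp5lox/lox controls, 590.0, 661.7 and 739.8 CPM in Fkbp5lox/lox ELS mice, 495.0, 705.8 and 775.2 CPM in Fkbp5Nex controls and 678.1, 706.6 and 757.6 CPM in Fkbp5Nex ELS mice. Syngr1 had 390.7, 418.5 and 500.3 CPM in Fkbp5lox/lox controls, 378.9, 463.9 and 515.8 CPM in Fkbp5lox/lox ELS mice, 302.9, 464.9 and 549.2 CPM in Fkbp5Nex controls and 459.5, 495.4 and 535.4 CPM in Fkbp5Nex ELS mice. Each of these 3 vesicle genes was lowest in Fkbp5Nex control mouse 12, as were Syn1 and Syn2. Syn1 had 296.0, 348.6 and 429.3 CPM in Fkbp5lox/lox controls, 325.2, 400.5 and 538.3 CPM in Fkbp5lox/lox ELS mice, 291.2, 414.9 and 466.2 CPM in Fkbp5Nex controls and 355.0, 396.6 and 464.9 CPM in Fkbp5Nex ELS mice, and Syn2 had 762.9, 846.4 and 949.9 CPM in Fkbp5lox/lox controls, 763.2, 923.5 and 1014 CPM in Fkbp5lox/lox ELS mice, 687.4, 920.5 and 990.5 CPM in Fkbp5Nex controls and 794.0, 883.5 and 924.9 CPM in Fkbp5Nex ELS mice. Sv2a had 431.3, 450.7 and 511.1 CPM in Fkbp5lox/lox controls, 444.2, 470.1 and 515.2 CPM in Fkbp5lox/lox ELS mice, 381.1, 494.5 and 514.2 CPM in Fkbp5Nex controls and 464.6, 502.5 and 514.6 CPM in Fkbp5Nex ELS mice. It was also lowest in mouse 12. Rab3a had 458.4, 491.7 and 552.1 CPM in Fkbp5lox/lox controls, 467.5, 517.0 and 583.8 CPM in Fkbp5lox/lox ELS mice, 353.5, 541.8 and 612.4 CPM in Fkbp5Nex controls and 492.4, 532.9 and 572.5 CPM in Fkbp5Nex ELS mice.

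Of the called members at the plasma membrane and active zone, Stx1a had 77.6, 92.3 and 97.5 CPM in Fkbp5lox/lox controls, 78.3, 97.8 and 111.6 CPM in Fkbp5lox/lox ELS mice, 78.2, 97.7 and 110.4 CPM in Fkbp5Nex controls and 83.8, 96.9 and 119.8 CPM in Fkbp5Nex ELS mice. Rims1 had 177.4, 188.6 and 200.9 CPM in Fkbp5lox/lox controls, 193.5, 202.0 and 211.4 CPM in Fkbp5lox/lox ELS mice, 147.6, 194.8 and 247.1 CPM in Fkbp5Nex controls and 190.3, 203.7 and 226.1 CPM in Fkbp5Nex ELS mice. The medians of both recycling proteins were close in the 4 groups. Nsf had 1346, 1433 and 1544 CPM in Fkbp5lox/lox controls, 1402, 1488 and 1545 CPM in Fkbp5lox/lox ELS mice, 1113, 1416 and 1564 CPM in Fkbp5Nex controls and 1352, 1492 and 1555 CPM in Fkbp5Nex ELS mice, and Napb had 686.3, 759.1 and 841.5 CPM in Fkbp5lox/lox controls, 657.0, 759.7 and 842.7 CPM in Fkbp5lox/lox ELS mice, 644.0, 768.7 and 822.9 CPM in Fkbp5Nex controls and 717.7, 766.1 and 840.3 CPM in Fkbp5Nex ELS mice. Syt7 had 228.1, 266.9 and 275.0 CPM in Fkbp5lox/lox controls, 237.0, 293.2 and 387.9 CPM in Fkbp5lox/lox ELS mice, 218.6, 249.7 and 309.2 CPM in Fkbp5Nex controls and 232.0, 262.3 and 317.1 CPM in Fkbp5Nex ELS mice. The rarer Syt2 had 13.2, 17.1 and 35.5 CPM in Fkbp5lox/lox controls, 12.1, 19.5 and 30.0 CPM in Fkbp5lox/lox ELS mice, 6.18, 20.2 and 38.1 CPM in Fkbp5Nex controls and 13.5, 23.2 and 38.7 CPM in Fkbp5Nex ELS mice. It was lowest in mouse 12. Unc13c had medians of 12.3, 15.8, 12.5 and 12.4 CPM in the same order of groups and ran from 8.32 to 31.2 CPM over all mice.

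In all, 21 members were called for at least 1 score and 14 for none. The 14 were Vamp2, Cplx2, Syn3, Rab3b, Rab3c, Rims2, Unc13a, Unc13b, Bsn, Pclo, Erc2, Doc2a, Syngr3 and Napa. They held the major vesicle SNARE, the major priming factor and the large scaffolds bassoon and piccolo, and within the complexin and Vamp families 1 paralog was called (Cplx1, Vamp1) and the other was not, although the difference between paralogs was not tested.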

How the data were processed

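Gene counts were used as deposited. Per the labels and the study's methods, the authors aligned reads with HISAT2 (version 2.0.5) and counted them per gene with featureCounts (1.5.0-p3); the genome build, the annotation and the strand setting are not given in the sources used here. The 24 libraries came from separate mice, 6 per group, and groups were taken from the labels. A gene was tested when all mice of 1 or more groups had 10 counts or more (16209 genes). Group means and 5 surrogate variables (svaseq, sva 3.50.0) were fitted with edgeR's quasi-likelihood test (4.0.16, R 4.3.3) after TMM scaling, with Benjamini-Hochberg adjustment over all tested genes and an FDR threshold of 0.02, after the study's own threshold. Slopes on 1 marker score at a time were fitted with group means and without surrogate variables. DESeq2 (1.42.0) was an alternative. The code was tested on simulated counts.

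Fitted values with surrogate variables can differ from ratios of the plain group levels. Exon lengths came from GENCODE vM21 (GRCm38), promoters from RefSeq (GRCm38.p6), where 27 members had a window. Group values are given for members past the threshold for a score, those with the smallest p in each comparison, the ends of the level order, the most and least variable members and the paralog families, and from the other lists for genes with the smallest p. The members, lists and tests were chosen with earlier results of these data known. Other alternatives were other scalings, filters and covariates, an FDR of 0.05, and leaving out mice. Surrogate variables were estimated anew in the group comparisons that left out mice. With totals of 18347283 to 26555623 counts, depth limits precision mainly for the few members under 10 CPM.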

Additional observations from a re-analysis of the deposited data

Results flagged for a closer look

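Single mice lay far from the other 5 of their group (gap over range above Dixon's critical value) in 7 of the 140 sets of 6 values, 5% of them, and chance gives about 1 in 20. Fkbp5Nex control mouse 12 accounted for 3, with 381.1 CPM of Sv2a (the others had at least 472), 122.8 CPM of Sv2c (at most 33.7) and 644.0 CPM of Napb (at least 758). Fkbp5lox/lox control mouse 44 accounted for 2, with 581.4 CPM of Sv2b (at least 727) and 152.0 CPM of Doc2b (at most 68.6). Fkbp5lox/lox ELS mouse 8 had 82.3 CPM of Sv2c (at most 38.7), and Fkbp5Nex ELS mouse 10 had 54.2 CPM of Rab3b (at most 39.0). The first 3 of these mice also stood apart in marker scores, and the part of tissue makeup in these values was not tested.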

How the results depend on the processing

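In the 7 group comparisons, the count of members past the FDR of 0.02 was 0 under the alternatives run, apart from DESeq2's Wald test for genotype in controls (1, Doc2b) and leave-one-out fits, which gave 0 to 1 for genotype in controls and for genotype over both rearing conditions (1 without Fkbp5lox/lox ELS mouse 68, Doc2b) and 0 in the other 5. Of 27 values of members with an unadjusted p below 0.05 or the smallest p, 17 alternatives reversed the sign. With the 3 regional scores as covariates these were Rims3 (-0.0967) and Pclo (-0.118) for genotype in controls, Erc2 (0.011) and Napa (0.0052) for genotype after ELS, Pclo for the interaction (-0.0652), Sv2c (0.348), Rims3 (-0.037) and Napa (0.0309) for genotype over both rearing conditions and Napa for ELS over both genotypes (-0.0118). Others reversed without surrogate variables, and with the thalamus score, less its group means, in their place. In that order, these were Unc13b for ELS in Fkbp5lox/lox mice (-0.0175 and -0.0203) and Pclo for genotype in controls (-0.0256 and -0.0272) and for the interaction (-0.0262 and -0.0247). Unc13b for ELS in Fkbp5lox/lox mice was -0.011 without the 3 mice that stood apart, and Pclo for genotype in controls ran from -0.0126 (without Fkbp5lox/lox control mouse 74) to 0.159 when 1 mouse was left out. The cause was not tested.

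Counts of members called for a score moved more. Leaving out 1 mouse gave 1 to 2 for the thalamus, 2 to 14 for the dentate gyrus, 0 to 2 for CA1, 8 to 18 for CA2/CA3, 0 to 3 for GABA interneurons and 4 to 10 for oligodendrocytes. Without the 2 mice at the greatest distance from the median score, the counts were 0 for the thalamus, 1 for the dentate gyrus, 0 for CA1, 5 for CA2/CA3 and 0 for GABA interneurons. Without the 3 mice that stood apart they were 1, 2, 4 and 0 for the dentate gyrus, CA1, CA2/CA3 and GABA interneurons. At an FDR of 0.05, with the share of tested genes, they were 2 for the thalamus (0.672%), 16 for the dentate gyrus (20.8%), 2 for CA1 (0.962%), 17 for CA2/CA3 (20.8%), 4 for GABA interneurons (1.26%) and 12 for oligodendrocytes (14.8%). Of the alternatives to slopes of named members, 866 kept the call, 142 lost it and 0 reversed. The fold between the highest and lowest level was 451.2 by longest transcript.

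No paired analysis was run. The study used littermates of both genotypes and assigned dams with their litters to ELS or control rearing. The sample labels give no litter, so mice were treated as independent in every fit. The part of litter in the standard errors, intervals and p-values was not tested. Surrogate variables for the unfiltered fit came from the genes that passed the filter.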
